A study of Sus scrofa with 6 samples.

Results

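The zinc finger protein genes of pig chromosome 2 were compared between parthenogenetic (PA) and control (CN) embryos. The list held every protein-coding gene of chromosome 2 whose symbol starts with ZNF or ZFP, and every one with a provisional LOC symbol whose annotated transcript product is called a zinc finger protein. It came to 38 genes of 1997 protein-coding genes with transcripts on chromosome 2, and of 30139 genes in the deposited tables. Of the 38, 18 had a ZNF or ZFP symbol and 20 a LOC symbol, and they were represented by 144 transcripts.

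Whole embryos, all labelled Landrace x Yorkshire x Duroc (LYD), were recovered at embryonic day 21, with 3 embryos in each group. PA embryos, labelled parthenogenesis, grew in 2 Landrace x Yorkshire (LY) surrogate gilts from in vitro matured oocytes of LYD ovaries that were activated by electric pulses, so they were diploid with maternal genomes only. CN embryos, labelled untreated, came from 2 LY gilts mated with boars, whose breed is not given in the sources used here, and carried a maternal and a paternal genome. The mother's breed, the origin of the oocytes, the transfer to surrogates and the absence of a paternal genome go together in PA and cannot be told apart here. With 3 embryos from 2 gilts in a group, at least 2 embryos shared a gilt, and which ones is not given in the sources used here. The embryos of a group are therefore not fully independent, and the p-values measure the spread between these embryos.

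Zinc finger proteins of the C2H2 type bind DNA through repeated fingers, in each of which a pair of cysteines and a pair of histidines hold a zinc ion. Many mammalian members carry a KRAB box, a repressor domain that recruits TRIM28 and, through it, SETDB1 and heterochromatin proteins. KRAB zinc finger genes arose by tandem duplication, lie in clusters, and often silence transposable elements. Some of these proteins, such as ZFP57, are known to keep DNA methylation at imprinted regions, and others are themselves imprinted in some mammals.

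The total of estimated counts was 3100284 to 3276414 in CN and 3360478 to 3573406 in PA. Transcripts annotated on other chromosomes held 0.294% to 0.353% of counts, so the data describe chromosome 2 almost alone. A transcript outside the annotation, XR_902341385.1, held 6.88% to 7.74% of counts in CN, 10.2% in PA2, 8.44% in PA3 and 16.9% in PA1. Because TPM (a transcript level corrected for length and scaled to a fixed total) sums to a constant in each embryo, this share lowers the TPM of other genes most in PA1. A count of 3, taken as the smallest detectable amount, corresponded to 0.84 to 0.968 CPM (counts scaled to library size), and these floors cover counting error only. In whole embryos, fewer cells of a type and less RNA per cell cannot be told apart.

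Of the 38 genes, 37 were above 3 counts in every embryo and also passed the expression filter. The exception was LOC102157889, annotated as ZNF501-like, which was listed at 0 in all 6 embryos. Together the 38 genes held 0.723% to 0.761% of counts in CN and 0.692% to 0.841% in PA. Their summed TPM was 3694 ± 274 (SD, n = 3) in CN and 3904 ± 434 (SD, n = 3) in PA, a ratio of 1.06. Relative to its mean over the 6 embryos, the median member stood at 0.02, -0.10 and -0.13 (log2) in CN1, CN2 and CN3 and at 0.02, 0.13 and 0.08 in PA1, PA2 and PA3. The summed TPM of the groups overlapped (exact permutation test, two-sided, p = 0.7, where 3 embryos against 3 cannot give less than 0.1). With TPM rescaled by TMM-type factors the ratio was 1.09, with every PA embryo above every CN embryo (p = 0.1 by the same exact test), and leaving out 1 embryo gave unscaled ratios from 1.00 without PA3 to 1.12 without PA1.

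The main change in the list was a near loss of LOC100521431 in PA. This gene, annotated as ZNF791-like, lies on the minus strand of chromosome 2 (Sscrofa11.1), from 66397234 to 66453036. CN1, CN2 and CN3 had 595, 452 and 549 estimated counts of it, whereas PA1, PA2 and PA3 had 17, 47 and 16. Every PA embryo was therefore far below every CN embryo, at 3.2%, 8.84% and 3.01% of the CN mean, and still above the 3 counts taken as detectable. TPM was 76.5, 68.4 and 75.5 in CN and 2.0, 5.7 and 2.0 in PA. The mean TPM was 73.5 ± 4.45 in CN and 3.25 ± 2.16 in PA (SD, n = 3), which is 22.6-fold higher in CN. By edgeR the log2 fold change, PA over CN, was -4.44, with a standard error of 0.36 and an adjusted p of 2.73e-04. Of all 1652 genes tested, LOC100521431 had the fourth lowest log2 fold change. It was lower in PA with an adjusted p-value below 0.05 in all 13 alternative analyses, with log2 fold changes from -5.13 to -4.13.

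The TPM plot of the 4 genes that passed the test shows this gap beside the smaller differences of the 3 others.

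**Figure D1:**
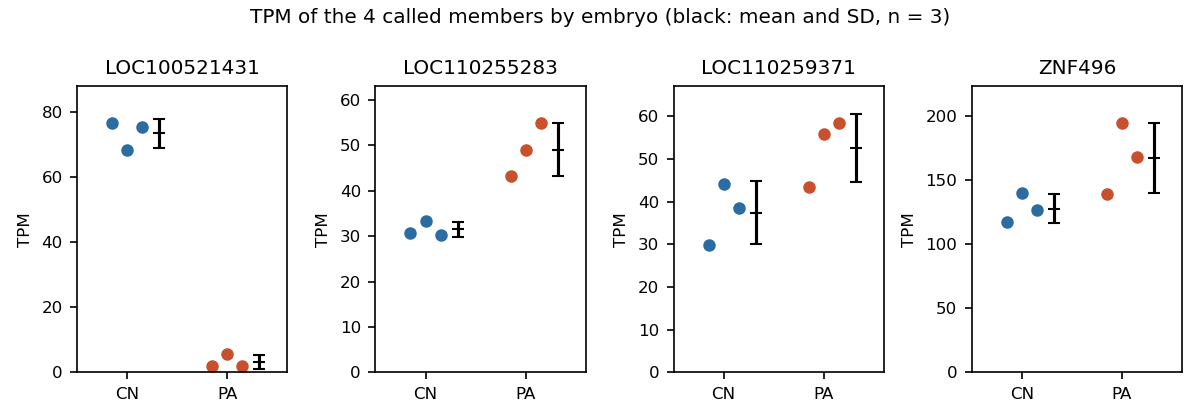
TPM (vertical axes, each from 0) of the 4 zinc finger genes with an adjusted p-value below 0.05, in 3 CN embryos (blue) and 3 PA embryos (orange), with the mean and SD of each group in black. LOC100521431 lies at 68.4 to 76.5 TPM in CN and at 2.0 to 5.7 TPM in PA, whereas LOC110255283, LOC110259371 and ZNF496 are higher on average in PA by less than 2-fold.

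LOC100521431 has 5 annotated transcripts with 3 first exons, and the fall was carried mainly by those that start at the innermost of them. XM_013990640.2, with 4 exons and a first exon from 66419990 to 66420162, had 478, 386 and 381 estimated counts in CN and was listed at 0 in all 3 PA embryos. Its mean was 131 ± 18.2 CPM (SD, n = 3) in CN, 146-fold above the highest PA floor of 3 counts per library. This ratio is no lower bound, since the division of reads between this transcript and XM_021083735.1, whose first exon overlaps, is an estimate. XM_021083735.1, with 3 exons and a first exon from 66419990 to 66420166, had 96.3, 60.2 and 122 counts in CN and 13.2, 28.9 and 11.5 in PA. The other 3 transcripts start farther out, at 66440912 or at 66453035 to 66453036. Together they had 20.5, 5.9 and 46.1 counts in CN and 3.8, 18.0 and 4.5 in PA. On these transcripts the groups overlapped, although the mean CPM was 2.90-fold higher in CN.

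The share of the gene's counts on the inner first exon was 95.6% ± 3.64 in CN and 70.4% ± 8.12 in PA (SD, n = 3), and no PA embryo reached the lowest CN share (two-sided exact permutation p = 0.1, the smallest possible). By mean CPM the inner first exon was 30.6-fold higher in CN. Salmon estimates how reads divide among transcripts that share exons, and the uncertainty of that estimate is not in the deposited tables. The stacked counts of the transcripts show the inner pair filling the CN bars.

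**Figure D2:**
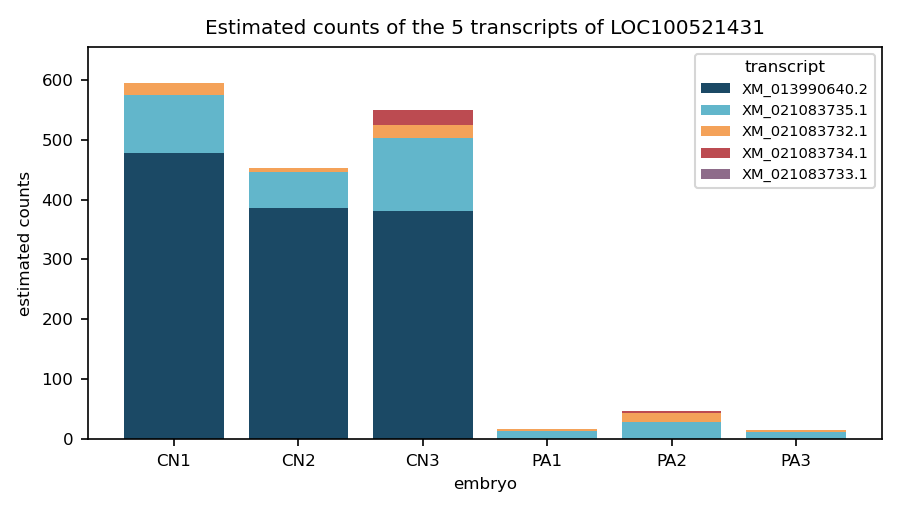
Estimated counts (vertical axis, from 0) of the 5 transcripts of LOC100521431, stacked by embryo (horizontal axis). XM_013990640.2 makes up most of each CN bar, at 381 to 478 counts, and is at 0 in PA1, PA2 and PA3.

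The 250 bases before the inner start are printed because this is the start that was nearly silent in PA, next to those before the main starts of LOC106508100, the other ZNF791-like gene of the cluster, and of LOC110255283, the gene of the cluster that was higher in PA. They were read from the Sscrofa11.1 genome on the strand of each gene, and capitals mark CpG sites. The inner window of LOC100521431 is chr2:66420167-66420416 on the minus strand, that of LOC106508100 is chr2:66674702-66674951 on the minus strand, and that of LOC110255283 is chr2:66756805-66757054 on the plus strand.
LOC100521431 inner start: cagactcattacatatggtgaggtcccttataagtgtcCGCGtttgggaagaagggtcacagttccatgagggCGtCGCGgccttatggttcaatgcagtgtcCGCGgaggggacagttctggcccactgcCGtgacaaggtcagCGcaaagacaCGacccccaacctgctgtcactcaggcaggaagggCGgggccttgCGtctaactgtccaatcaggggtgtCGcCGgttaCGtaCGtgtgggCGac
LOC106508100: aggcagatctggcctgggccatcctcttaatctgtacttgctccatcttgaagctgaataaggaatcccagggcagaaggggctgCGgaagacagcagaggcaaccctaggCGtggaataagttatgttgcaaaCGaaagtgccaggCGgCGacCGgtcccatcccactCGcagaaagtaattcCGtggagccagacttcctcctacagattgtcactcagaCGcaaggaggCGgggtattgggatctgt
LOC110255283: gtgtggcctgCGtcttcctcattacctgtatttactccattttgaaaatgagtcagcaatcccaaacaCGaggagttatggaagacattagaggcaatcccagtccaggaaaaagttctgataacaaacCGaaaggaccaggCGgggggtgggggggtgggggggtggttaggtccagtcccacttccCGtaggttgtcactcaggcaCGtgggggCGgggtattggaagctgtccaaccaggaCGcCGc

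The inner window of LOC100521431 held 17 CpG sites. Of the windows of the same length before 1997 protein-coding genes of chromosome 2, 32.8% held as many or more, with a median of 10. The windows before the outer starts of LOC100521431 held 1 site (middle start) and 0 sites (outermost start). LOC106508100 had 10 and LOC110255283 had 9. A CpG count describes the sequence and is no measure of its methylation, and DNA methylation was not analysed here.

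LOC100521431 was the only gene tested in its neighbourhood with an adjusted p-value below 0.05 and a lower level in PA. Within 500000 bases on either side, 42 genes were tested and 3 of them passed, beside 108 of all 1652 genes tested. The 2 besides LOC100521431 were higher in PA. These were LOC110255283 and MAST1, a microtubule-associated kinase (log2 fold change 0.59, standard error 0.13, adjusted p = 0.0382). The nearest gene on the side of lower coordinates, MAN2B1, a lysosomal mannosidase, had 3428 to 4094 counts in the CN embryos and 3603 to 4036 in the PA embryos (log2 fold change -0.09, adjusted p = 0.668). The pseudogene LOC110259337 overlaps the outer end of LOC100521431 on the same strand, with 58 to 70 counts in the CN embryos and 73 to 90 in the PA embryos (log2 fold change 0.29, adjusted p = 0.441). The next zinc finger gene, LOC100521069, a ZNF709-like gene, had 627, 559 and 731 counts in CN and 648, 649 and 756 in PA (log2 fold change 0.05, adjusted p = 0.846). None of these 3 flanking genes passed the test in either direction.

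**Figure D3:**
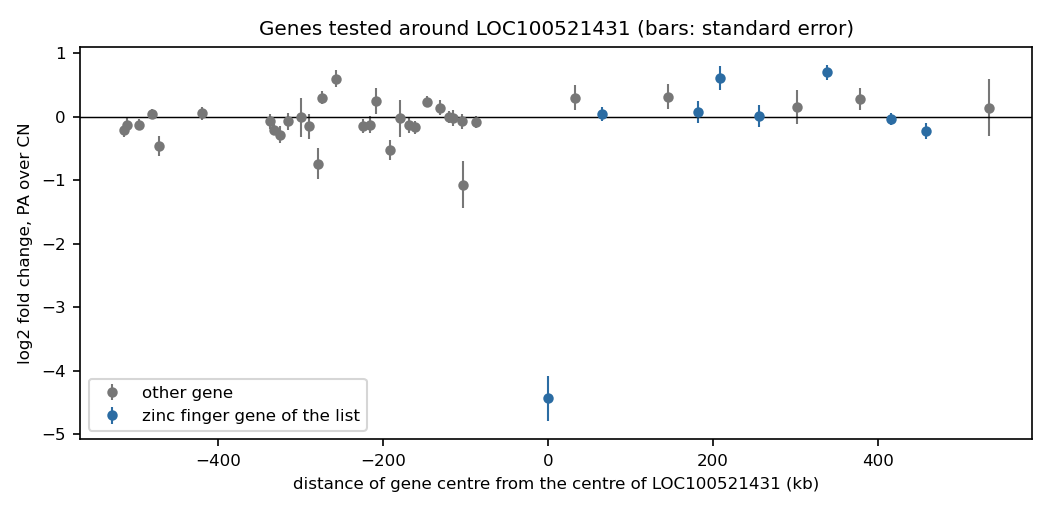
Log2 fold change, PA over CN (vertical axis), of 42 genes tested around LOC100521431 against the distance of the gene's centre from that of LOC100521431 in kb (horizontal axis), with standard errors. Blue points are zinc finger genes of the list and grey points other genes. LOC100521431 lies at -4.44, and the others between -1.07 and 0.70.

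LOC110255283, LOC110259371 and ZNF496 were higher in PA. LOC110255283, a ZNF709-like gene on the plus strand from 66757055 to 66769977, had 236, 219 and 217 counts in CN and 353, 373 and 407 in PA, so all PA embryos were above all CN embryos. Its TPM was 31.5 ± 1.69 in CN and 49.0 ± 5.82 in PA (SD, n = 3), also without overlap. PA over CN, this was a log2 fold change of 0.70, with a standard error of 0.12 (adjusted p = 0.0116, edgeR). The gene had adjusted p = 0.0624 without CN2 and 0.0572 without CN3, with log2 fold changes of 0.70 and 0.67.

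LOC110259371, annotated as ZNF555-like, lies on the minus strand from 75807806 to 75834866. It had 401, 508 and 484 counts in CN and 624, 749 and 761 in PA, without overlap. TPM was 29.7, 44.2 and 38.4 in CN and 43.4, 55.9 and 58.3 in PA, where PA1 fell just below CN2. Its log2 fold change of 0.56 had a standard error of 0.12 and an adjusted p of 0.0307 in edgeR. It did not pass with library totals in place of TMM factors (adjusted p = 0.0547), nor without CN2, CN3, PA2 or PA3 (adjusted p from 0.0513 to 0.114).

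ZNF496, on the plus strand from 57053417 to 57097831, encodes a SCAN domain protein known to bind the histone methyltransferase NSD1. It reached 1202, 1228 and 1214 counts in CN embryos and 1526, 1984 and 1672 in PA embryos, so the PA embryos stood clear of a narrow CN range. TPM was 117, 140 and 126 in CN and 139.5, 194 and 168 in PA, with PA1 within the CN range. Its log2 fold change of 0.45 had a standard error of 0.11 and an adjusted p of 0.0477 in edgeR. This p lies close to the threshold: the adjusted p was 0.0834 with library totals, and from 0.0651 to 0.159 without each of CN1, CN2, CN3, PA2 and PA3.

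By the adjusted p-value, 3 of 37 members (8.11%) were higher in PA against 2.12% of the 1652 genes tested, and 1 (2.70%) was lower against 4.42%. The count of 3 higher members fell to 0 without CN2 and without CN3, and to 1 without PA2, without PA3 or with library totals. Over all genes, calls in either direction also fell, from 108 to 48, 54, 58 and 70 without CN2, CN3, PA2 and PA3. With library totals they rose to 126. LOC100521431 was the only member that also exceeded an absolute log2 fold change of 1, so 2.70% of members were differentially expressed by both criteria, against 2.91% of all genes. CPM ranges of CN and PA did not overlap for 11 of 37 members (29.7%), a share near the 28.3% of all genes, and 9 of the 11 were higher in PA, beside 243 of 468 among all genes. The median log2 fold change of the 37 members was 0.09, beside 0.02 for all genes, with 27 of 37 members (73.0%) above 0 beside 53.0% of all genes. The members' median was 0.18 without PA1, 0.16 without CN1, and 0.035 with library totals in place of TMM factors, where the median of all genes was -0.04.

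**Figure D4:**
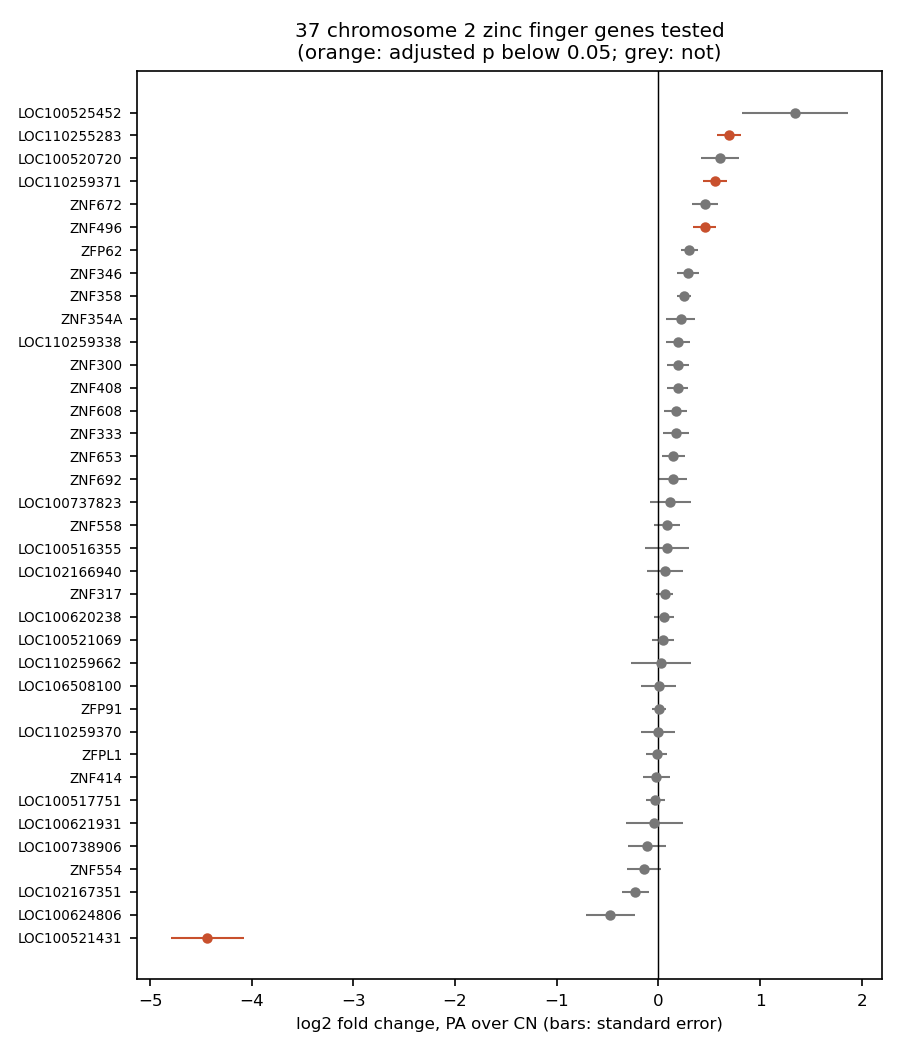
Log2 fold change, PA over CN (horizontal axis), of the 37 zinc finger genes tested (vertical axis, in order of fold change), with standard errors as bars. Orange points have an adjusted p-value below 0.05. LOC100521431 stands apart at -4.44, and 32 of 37 genes lie within 0.5 of 0.

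The levels of the members per length spanned a wide range. ZNF358, a C2H2 protein without a KRAB box found here, was the highest, at 690, 859 and 811 TPM in CN and 812, 927 and 939 in PA, with a log2 fold change of 0.25 (adjusted p = 0.0821; 0.0343 by DESeq2). Next came ZFP91, a ubiquitin ligase of the non-canonical NF-kappaB pathway, at 310 ± 28.0 TPM in CN and 297 ± 34.0 in PA (SD, n = 3). The standard deviations of ZFP91 exceeded the difference between its means, and no direction can be given because its fitted change of 0.00 turned sign in 4 of 13 alternatives. In every embryo ZNF358 was above ZFP91, and ZFPL1, ZNF354A, ZNF300, ZNF608, ZNF496 and ZNF672 made up the rest of the 8 members with the highest mean TPM.

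ZFPL1, a Golgi membrane protein, had 213 to 242 TPM in CN and 199 to 230 in PA (log2 fold change -0.02, adjusted p = 0.942), and its sign also changed between alternatives. ZNF354A, a KRAB repressor first described in kidney, had 181 to 208 TPM in CN and 173 to 286 in PA, where PA3 alone was above CN, and shares sequence with LOC100621931 (log2 fold change 0.22, adjusted p = 0.425). ZNF300 had 142 to 157 TPM in CN and 144 to 189 in PA (log2 fold change 0.19, adjusted p = 0.376). ZNF608, the longest protein of the list, had 110 to 170 TPM in CN and 134 to 180 in PA (log2 fold change 0.17, adjusted p = 0.441). For these 4 genes the CN and PA ranges overlapped. Single embryos moved all 4 changes by over 1.5 times, since ZFPL1 ranged from -0.05 without PA1 to 0.04 without CN1, ZNF354A had 0.06 without PA3, ZNF300 had 0.315 without CN1, and ZNF608 had 0.07 without CN1 and 0.26 without CN2.

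ZNF672 had 678, 647 and 559 counts in CN and 758, 881 and 975 in PA, without overlap in counts or CPM but with overlap in TPM, and a log2 fold change of 0.46 whose adjusted p was 0.0754. It passed by DESeq2 (adjusted p = 0.0291), without an expression filter and without PA1. LOC100520720, a ZNF14-like gene with 94.4, 82.4 and 73.0 counts in CN and 117, 126 and 152 in PA, had 0.61 (standard error 0.19, adjusted p = 0.103). ZNF346, which binds double-stranded RNA, ranged from 340 to 365 counts in CN and from 424 to 508 in PA, with 0.29 (standard error 0.11, adjusted p = 0.151). ZNF408, a gene of retinal vessel development, ranged from 448 to 529 counts in CN and from 572 to 582 in PA, which overlapped as CPM and as TPM, with 0.19 (adjusted p = 0.356). LOC102167351 lay in the other direction, with 366 to 397 counts in CN embryos and 272 to 373 in PA embryos, which overlapped as counts but not as CPM, and with -0.23 (adjusted p = 0.376), which was -0.11 without PA1. None of these 5 passed the test in the main analysis.

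The remaining members that did not pass ranged from -0.47 for LOC100624806, with 133, 110 and 124 counts in CN and 110, 61 and 95 in PA, to 1.34 for LOC100525452, annotated as ZNF474. LOC100525452 was the lowest tested member, with 7, 10 and 9 counts in CN and 10, 40 and 19 in PA, and its change (standard error 0.52, adjusted p = 0.183) rested mainly on PA2. Both genes were chosen for mention after their values were seen, as the ends of the range.

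Part of the list lay in clusters. Members no more than 500000 bases apart formed 2 clusters of at least 5. The larger ran from 66397234 to 67336323 and held 10 members, among them LOC100521431, LOC110255283, LOC100520720, ZNF317 and the undetected LOC102157889. Its 9 tested members had a median log2 fold change of 0.05 and ranged from -4.44 to 0.70, so the lowest and the highest change past the test lay in 1 cluster. The smaller ran from 75592404 to 75857601 with 6 members, LOC110259371 and ZNF554 among them, and had a median of 0.05 and a range of -0.14 to 0.56. The 22 members outside clusters had a median of 0.17.

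The products were compared by translating the longest coding transcript of each gene from the Sscrofa11.1 genome. A finger was counted as a cysteine pair spaced by 2 to 4 residues, 12 residues, and a closing pair of histidines, or a histidine and a cysteine, spaced by 3 to 5. Members coded for 0 to 25 fingers with a median of 10, and ZFP62 had the most. ZFPL1 and LOC100525452 had none of this spacing. LOC100521431 coded for 18 fingers and a KRAB box in 613 residues, LOC110255283 for 11 and a KRAB box in 441, LOC110259371 for 14 and a KRAB box in 631, and ZNF496 for 4 fingers in 586. The models of LOC100520720 and ZNF554 contained 1 stop codon each inside the translated frame.

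A KRAB box motif was found in 22 members, including 9 of the 10 in the larger cluster and all 6 in the smaller. The 22 had a median log2 fold change of 0.06, with 2 members higher and 1 lower past the test, and the 15 tested members without the motif a median of 0.19, with 1 higher. Of all genes tested, 2.12% were higher and 4.42% lower past the test. Members with 8 or more fingers had a median of 0.09 and those with fewer 0.14. These medians are descriptions, and a difference between the classes was not tested.

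The stretch of coding DNA below shows how alike the repeats of different members are, and is taken from the first finger that ends in a standard linker in LOC100521431 and in 3 relatives, namely LOC106508100 and the called LOC110255283 and LOC110259371. Each runs 5′ to 3′ on the coding strand from the first cysteine through the linker, with the codons of the zinc-holding cysteines and histidines in capitals. The positions are chr2:66400327-66400404 (minus), chr2:66652104-66652181 (minus), chr2:66767023-66767100 (plus) and chr2:75812582-75812659 (minus), in that order, all within coding exons.
LOC100521431: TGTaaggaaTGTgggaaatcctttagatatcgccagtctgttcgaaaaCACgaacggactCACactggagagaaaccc
LOC106508100: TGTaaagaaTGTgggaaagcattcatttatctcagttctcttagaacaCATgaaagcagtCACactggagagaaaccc
LOC110255283: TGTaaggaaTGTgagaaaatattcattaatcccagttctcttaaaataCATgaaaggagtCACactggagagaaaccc
LOC110259371: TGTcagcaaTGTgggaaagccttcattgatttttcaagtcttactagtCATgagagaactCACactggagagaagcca

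Of these 78 bases, LOC106508100 shared 61 with LOC100521431 at the same position, LOC110255283 shared 59 and LOC110259371 shared 51. Such likeness can make reads hard to assign, so the share of 31-base words that belong to 1 gene alone among the annotated transcripts of the tables was counted. It was 97.8% for LOC100521431, 94.8% for LOC110255283, 92.5% for LOC110259371 and 99.8% for ZNF496. The member sharing most words with LOC100521431 was LOC100624806, at 0.9% of those of LOC100521431. The shares were lowest for LOC100517751 and LOC102167351, at 34.6% and 43.9%, followed by ZNF354A (82.6%), LOC100520720 (89.0%) and LOC100621931 (89.5%), so the separate values of these 5 are uncertain. LOC100520720 shared 5.9% of its words with the called LOC110255283, which shared 3.91% of its own in return. Reads of this pair can therefore be hard to assign. ZNF354A shared 15.8% of its words with LOC100621931, which had 231, 251 and 212 counts in CN embryos and 250, 304 and 147 in PA embryos, and so was lowest in PA3, where ZNF354A was highest. LOC100517751 had 953, 894 and 907 counts in CN and 822, 938 and 1047 in PA.

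Partners of KRAB zinc finger proteins were covered only where their genes lie on chromosome 2. Of a list of 28, 5 were tested, and 0 passed the edgeR test in either direction, with 0 at an unadjusted p below 0.05 and 0 by DESeq2. DNMT1, the maintenance DNA methyltransferase, ranged from 5777 to 6948 counts in CN and from 6734 to 8130 in PA (log2 fold change 0.12, adjusted p = 0.485). UHRF1, which brings DNMT1 to hemimethylated DNA, had 7954 to 9036 counts in CN embryos and 7890 to 10200 in PA embryos (log2 fold change 0.02, adjusted p = 0.937). MBD3, MTA2 and GATAD2A, subunits of the NuRD deacetylase complex, had log2 fold changes of 0.03, 0.14 and 0.09. The other genes of the list, TRIM28 and SETDB1 among them, are not annotated on chromosome 2 and were not analysed here. Of 10 zinc finger genes known for imprinting, such as ZFP57 and PEG3, none lies on chromosome 2 in this annotation and 0 were tested.

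Markers of several embryonic tissues also differed between the groups. The 18 marker genes were listed with earlier results of these data known, so the number that passed is no independent result. Of them 15 were tested and 6 passed, beside 108 of all 1652 genes tested. PAX6 and SYT13, neural genes, were higher in PA (log2 fold changes 0.84 and 0.70), while CELF1, the third neural marker, had -0.06 (adjusted p = 0.78). The summed TPM of the 3 was 510 to 565 in CN and 545 to 650 in PA, of which CELF1 alone held 366 to 405 in CN and 329 to 402 in PA. WT1, SLC22A12 and SLC22A8, of the nephrogenic and coelomic list, were lower in PA (-0.47, -4.32 and -2.82), with a summed TPM of 247 to 367 in CN and 102 to 142 in PA. MYBPC3, of striated muscle, was lower in PA as well (-0.98), and the 2 muscle markers summed to 380 to 519 TPM in CN and 218 to 291 in PA. The liver, mesenchyme, blood and trophoblast markers of the list that were tested did not pass, which does not show that these tissues were alike, and ELF5, of trophoblast, had 23 to 44 counts. Outside the list, and chosen after their values were seen, TRIM58, an erythroid gene, MS4A4A, a macrophage gene, and ELANE and AZU1, neutrophil granule genes, were lower in PA (log2 fold changes -2.66, -2.59, -1.64 and -1.45, adjusted p = 0.0116, 0.0319, 0.0382 and 0.0432). The part of tissue composition in the changes of LOC100521431, LOC110255283, LOC110259371 and ZNF496 was not tested.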

How the data were processed

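RNA of 3 PA and 3 CN whole embryos was sequenced as paired reads from polyA-selected libraries made with a kit that does not mark strand. The authors quantified the reads with Salmon 1.3.0 against the pig transcriptome and deposited, per embryo, estimated counts, which are not normalized, and TPM, scaled per embryo. Sscrofa11.1 is the build named in the submitters' notes.

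Transcripts were joined to genes by NCBI Annotation Release 106 of Sscrofa11.1. Gene sums of counts were rounded and tested for all genes with edgeR 4.0.16 in R 4.3.3 (quasi-likelihood, two-sided), with TMM factors, a transcript length offset, filterByExpr at a minimum count of 10 and a minimum total of 15, and Benjamini-Hochberg adjustment over 1652 genes. Differential expression required an adjusted p below 0.05 and an absolute log2 fold change above 1. Standard errors were derived from the F statistic of each gene. TPM was compared on the log2 scale with a pseudocount of 0.1 by exact permutation. DESeq2 1.42.0 was an alternative. The fitting script was tested on simulated counts. Sequences were read with Biopython 1.88 in Python 3.11.15 from the same genome build.

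Members and lists were chosen with earlier results of these data known. The genes named are members that passed, the 8 with the highest mean TPM, up to 5 in each direction with the largest changes and no overlap between groups at a mean of at least 1 CPM, and a short preset list. Within groups no embryo pair was close enough to be 1 library (chi-square per degree of freedom 5.78 to 96.5).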

Additional observations from a re-analysis of the deposited data

How the results depend on the processing

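LOC100521431 passed in all 13 alternatives, and the median change of the members stayed positive. The number of members that passed was 4, and 2 with library totals in place of TMM factors. It ranged from 1 to 5 when each embryo was left out in turn. Of these, members higher in PA numbered 3, with 5 by DESeq2, 1 with library totals, and 0 to 4 when 1 embryo was dropped. LOC100521431 alone passed when CN2 or CN3 was dropped. Over all genes 108 passed, against 126 with library totals, 173 by DESeq2 and 48 to 128 when 1 embryo was dropped. The median log2 fold change of the members was 0.09, and 0.066 to 0.182 in the 6 fits that left out 1 embryo. It was 0.035 with library totals, which moved the median of all genes from 0.02 to -0.04. Differentially expressed genes in the whole table numbered 48, and 77 without the expression filter. The cause of these changes was not tested.

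PA and CN embryos share the numbers 1 to 3 but are different embryos. Deviations of same-numbered embryos from their group means were correlated at 0.245, 0.12 and 0.038 across genes. With the replicate block, 3 members passed, ZNF496 did not (adjusted p = 0.0501, log2 fold change 0.45), and LOC100521431 had -4.49 (adjusted p = 0.00618). PA1 and PA2 but not PA3 correlated best with the CN embryo of their own number.

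ZFP91, at 0.00446, reversed to -0.00339 by DESeq2 and -0.0534 with library totals, and ranged from -0.00524 to 0.0318 with an embryo left out. ZFPL1, at -0.0163, reversed to 0.000481 without the length offset, and ranged from -0.053 to 0.0442 with an embryo left out. The TPM comparison has no expression filter, so no alternative without one was run. With a pseudocount of 1 the log2 TPM difference of LOC100521431 was -4.24 in place of -4.64. Where both groups held 3 counts per library or fewer, counts were taken as too low to show a difference.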
